A study of Mus musculus with 30 samples.

Results

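A set of 10 mouse genes, Nr1h5, Tpm3-rs7, Rp1l1, Abhd12b, Padi4, Zfp979, Zfp984, Zfp985, Akr1e1 and Trim5, are described here because their reads were nearly missing from whole groups of a limb bud time course, or differed sharply between them. They are 10 of the 50833 genes in the table of read counts, found there by symbol through the Ensembl identifier, and they were picked from these same measurements, so every difference between groups of these genes is a description and carries no test. The tissue was the forelimb bud of wild type Swiss Albino embryos whose mothers were injected at E10.5, the treated ones with C59 and the controls with the solvent DMSO. Buds were taken 1, 6, 12, 18 or 24 h after the injection, which gives 10 groups of 3 libraries. Each library was made from polyA RNA of forelimb buds, described in the methods of the study as a single pair per replicate from embryos of both sexes. The methods of the study describe, under embryo collection, replicates of each condition and time that were drawn from several litters. The labels name no dam or litter, so the litter of each library is not known and no term for litter could be fitted.

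C59 blocks porcupine, the enzyme that attaches the fatty acid Wnt proteins need to leave the cell, and Axin2, a feedback inhibitor that Wnt signaling induces, falls when the pathway is blocked. The genes described here have no common pathway: a nuclear receptor, an intronless copy of a tropomyosin gene, a photoreceptor protein, enzymes, KRAB zinc finger genes that lie in a cluster of close relatives, and a member of the TRIM family. Intronless copies arise when a spliced mRNA is copied back into the genome, and clusters of zinc finger genes arise by repeated duplication, so both kinds of gene can resemble their relatives base for base.

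Libraries held between 18188636 and 38974885 counts. Levels are given as CPM, the count of a gene per 1000000 counts of its library after TMM scaling, and are compared only between libraries, not between genes. Mesenchymal markers of the forelimb were present in every library, with Prrx1 between 80.9 and 127 FPKM and Tbx5 between 35.8 and 71.3 FPKM. Both Xist and the Y-linked gene Ddx3y were detected in 14 of the 30 libraries, with Xist above 10 and Ddx3y above 1 FPKM. Of the others, 4 libraries had Ddx3y without Xist and 12 the reverse. Libraries with both are hard to reconcile with a single pair of buds per replicate. The methods of the study also describe several pairs of stage-matched buds that were dissected and stored ahead of RNA isolation. Whether embryos were pooled is not known, so a library cannot be taken as 1 embryo of 1 sex. Hepatocyte markers summed to 21.7 FPKM in DMSO 12 h replicate 2 and 17.0 FPKM in C59 24 h replicate 3, against at most 0.604 in the other libraries. Axin2 was at 25.7% of its DMSO level at 6 h (log2 fold change -1.97 ± 0.06 (SE), adjusted p = 7.55e-11, edgeR's quasi-likelihood test with Benjamini-Hochberg adjustment, 3 against 3 libraries) and at 36.5% at 12 h (-1.45 ± 0.06, adjusted p = 1.4e-07). At 1, 18 and 24 h it was at 87.5%, 88.6% and 93.8% of the DMSO level.

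A gene was called switched in a comparison when its highest library in one group lay more than 10-fold below its lowest library in the other group and the higher group averaged at least 1 CPM. Among 17650 protein-coding autosomal genes with a count, such a gap separated C59 from DMSO for 2 genes 1 h after the injection (0.0113%). There were 6 of them at 6 h and again 6 at 12 h (0.0340% each time), 2 at 18 h (0.0113%), and 4 by 24 h (0.0227%). Of these, 2, 3, 0, 2 and 4 were among the 10 genes described here, as follows from how they were picked. Thus 8 of their 11 switches between treatments fell at 1, 18 or 24 h and the other 3 at 6 h. The same gap was counted between neighboring time points within a treatment. Within DMSO it was found for 5 genes from 1 to 6 h and 5 from 6 to 12 h (0.0283% each), and for 1 gene at each later step (0.00567% each); 4, 4, 0 and 0 of them were from the present 10. Within C59 it was found for 6 genes at every step (0.0340%), of which 2, 0, 2 and 4 were from the present 10. Of the 18 genes switched in any treatment comparison, 15 (83.3%) were also switched between neighboring times, and these were 65.2% of the 23 genes switched in time. Nr1h5 and Tpm3-rs7 were the only 2 of the 17650 genes that switched upward with C59 at one time and downward at another. All 11 switches between treatments and all 16 in time remained when the 2 libraries with hepatocyte markers were left out. Leaving out a library can never narrow such a gap, so only the condition of 1 CPM could have failed.

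**Figure D1:**
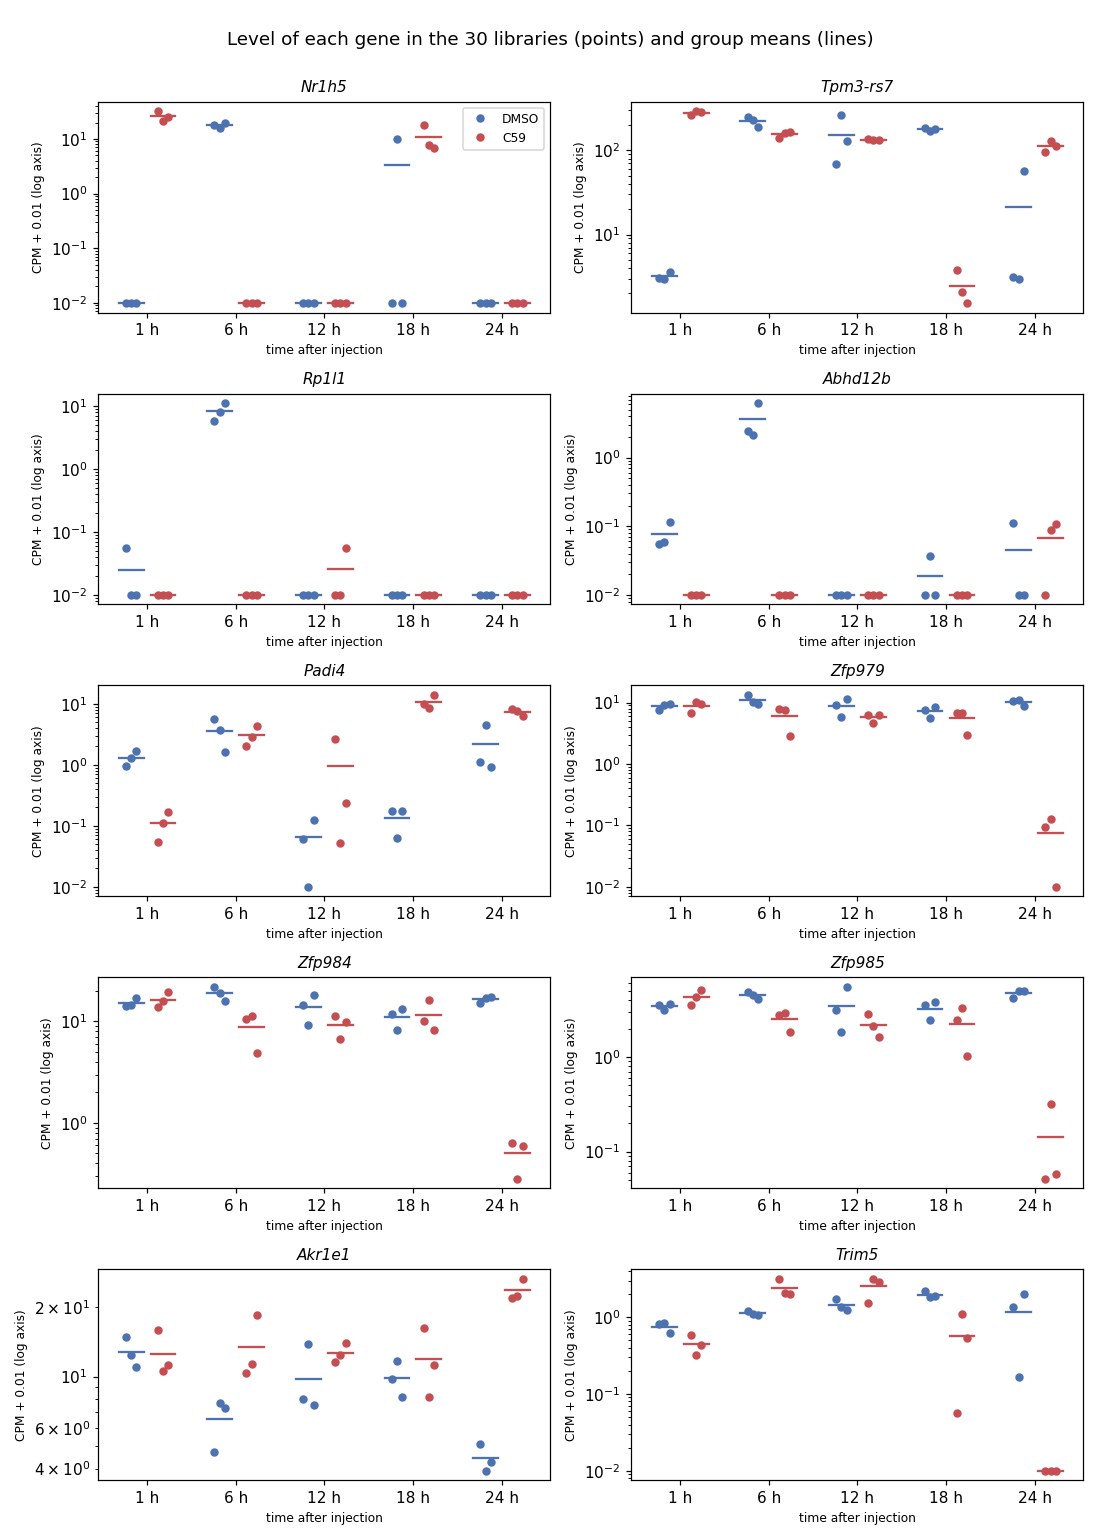
CPM plus 0.01 on a log axis against hours after injection, for each of the 10 genes in 30 libraries (points, blue for DMSO and red for C59) with the mean of each group as a line; the lowest points of Nr1h5, Rp1l1, Abhd12b, Padi4, Zfp979 and Trim5 are libraries with a count of 0. Nr1h5 is at 0 in 20 libraries, Rp1l1 and Abhd12b stand out in DMSO 6 h alone, and the 3 zinc finger genes drop only in C59 24 h.

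Nr1h5, a nuclear receptor related to the bile acid receptor and known to respond to sterols, lies on chromosome 3 (102939658 to 102964133, minus strand, mm10). It had 412 to 734 counts in the C59 1 h libraries, with levels of 32.3, 21.2 and 25.2 CPM, and none in any DMSO 1 h library. At 6 h the arrangement was turned around: the DMSO libraries held 17.9, 15.9 and 19.4 CPM and the C59 libraries none. All 12 h and 24 h libraries of both treatments were at 0. At 18 h the C59 libraries held 18.1, 7.74 and 6.81 CPM, while DMSO replicate 2 held 10.2 CPM and the other two DMSO libraries none, so the groups overlapped. Against a floor of 3 counts over the empty group, the level was at least 619.7-fold higher with C59 at 1 h and at least 388.4-fold lower at 6 h. Within DMSO alone it was at least 418.8-fold higher at 6 h than at 1 h. The libraries that had Nr1h5 reads were not of one sex: 6 of the 10 had Y-linked transcripts summing to more than 1 FPKM, as had 12 of the 20 libraries without Nr1h5. The 2 libraries with high hepatocyte markers were among those at 0.

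Rpl26, a ribosomal protein gene on chromosome 11, followed Nr1h5 most closely among 16837 genes over the 30 libraries (Pearson r = 0.82, Spearman rho = 0.66; libraries of one group share their embryos' treatment and time). It stood at 203 and 180 CPM in C59 1 h replicates 1 and 2 and at 37.7 CPM in replicate 3. In DMSO 6 h it was at 147, 132 and 246 CPM, and in C59 18 h at 305, 165 and 221 CPM. The means of its other groups lay between 29.2 and 35.2 CPM. Rpl26 therefore rose above that range in the same 3 groups as Nr1h5, but 2 libraries parted the genes: C59 1 h replicate 3 and DMSO 18 h replicate 2 (27.6 CPM) had Nr1h5 reads and ordinary Rpl26. The next genes, the pseudogene Gm19680 and the methyltransferase gene Smyd3, had r of 0.69 and 0.67, and group means of Smyd3 spanned only 18.2 to 22.8 CPM. On log2(FPKM + 1) their r with Nr1h5 was -0.07 and 0.1, against 0.79 for Rpl26.

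Of 15 genes of the Nr1h5 family and of bile acid or sterol handling, 8 were tested. Abca1, a sterol exporter, was higher with C59 at 12 h (60.4 ± 8.58 against 26.4 ± 4.73 CPM, SD, n = 3; log2 fold change 1.20 ± 0.13 (SE), adjusted p = 3.16e-05, edgeR's quasi-likelihood test with Benjamini-Hochberg adjustment), a time at which Nr1h5 was at 0 in both groups. No other gene of that list passed an adjusted p of 0.05 with a change beyond 1 on the log2 scale at any time. Of all tested genes, 4.95% passed both at 12 h.

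Tpm3-rs7 is a single-exon gene on chromosome 14 (113314608 to 113316754, plus strand, mm10), a copy of Tpm3, whose product is a tropomyosin that winds along actin filaments. Its 744 coding bases differ from those of the 8-exon Tpm3 transcript Tpm3-201 at 3 positions (99.6% identical), all of which fall in the first 150 bases. Of all windows of 150 bases, the length of a read, 78.7% hold none of the 3 differences, and 49.8% of the gene's stretches of 100 bases occur unchanged in Tpm3 transcripts. The stretch with all 3 differences is shown for both genes, the differing bases in capitals, because it is the part of the coding sequence in which a read can tell the genes apart: chr14:113314676-113314825 for Tpm3-rs7, and coding bases 1 to 150 of Tpm3, in 2 exons between 90079732 and 90086463 on chromosome 3 (plus strand).
Tpm3-rs7: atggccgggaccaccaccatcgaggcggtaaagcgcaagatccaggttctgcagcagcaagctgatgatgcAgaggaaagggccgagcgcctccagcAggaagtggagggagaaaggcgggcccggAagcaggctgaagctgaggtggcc
Tpm3: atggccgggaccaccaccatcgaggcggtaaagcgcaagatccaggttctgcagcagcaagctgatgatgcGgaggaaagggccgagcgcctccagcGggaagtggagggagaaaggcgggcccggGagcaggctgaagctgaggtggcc

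Tpm3-rs7 had reads in every library but at very unequal levels. In DMSO 1 h it was at 3.08, 2.99 and 3.56 CPM and in C59 1 h at 264, 292 and 286 CPM, an 87.4-fold difference in means. At 18 h the order was the opposite, with 182, 170 and 181 CPM in DMSO and 3.74, 2.05 and 1.53 CPM in C59, a 72.9-fold difference. The DMSO 24 h group was split, with 3.14 and 2.93 CPM in replicates 1 and 2 and 57.5 CPM in replicate 3, against 96.9, 130 and 112 CPM in C59. DMSO 12 h also spread widely (68.3, 264 and 130 CPM), while C59 12 h did not (136, 134 and 132 CPM). At 6 h all libraries were high, 192 to 248 CPM in DMSO and 141 to 164 CPM in C59. The low state was thus seen in a DMSO group, a C59 group and 2 of 3 libraries of another group.

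The gene it was copied from moved in the other direction. Tpm3 was at 269 ± 22.7 CPM in C59 1 h and 564 ± 14.7 CPM in DMSO 1 h (SD, n = 3; log2 fold change -1.07 ± 0.05 (SE), adjusted p = 2.35e-08, edgeR's quasi-likelihood test with Benjamini-Hochberg adjustment), the only one of 7 tropomyosin and tropomodulin genes that passed both thresholds at any time. The sum of both genes was 567 ± 14.6 CPM in DMSO 1 h and 549 ± 7.76 CPM in C59 1 h. At 18 h, the other switch, it was not level, at 445 ± 18.9 CPM in DMSO and 347 ± 30.3 CPM in C59. It was 499 ± 8.59 and 357 ± 11.7 CPM at 12 h in the same order. At 6 h it was 525 ± 19.5 and 488.5 ± 8.26 CPM, and at 24 h 441.5 ± 17.5 and 447 ± 32.6 CPM. Over all libraries this sum ranged 1.87-fold (CV 15.7%), against 2.75-fold for Tpm3 (CV 28.9%) and 190-fold for Tpm3-rs7 (CV 75.3%). Tpm3-rs7 took 0.567% of the sum in DMSO 1 h and 0.691% in C59 18 h, and 25.2% to 51.1% on average in the groups in which no library was low. Within the DMSO 12 h group alone its share ran from 13.4% to 53.7% at a sum of 499 ± 8.59 CPM. The levels of the 2 genes were inversely related over the 30 libraries (Pearson r = -0.71) and more so after each group's mean was taken out (r = -0.89); libraries of a group share time and treatment, and how reads that fit both genes were counted is not given in the sources used here.

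**Figure D2:**
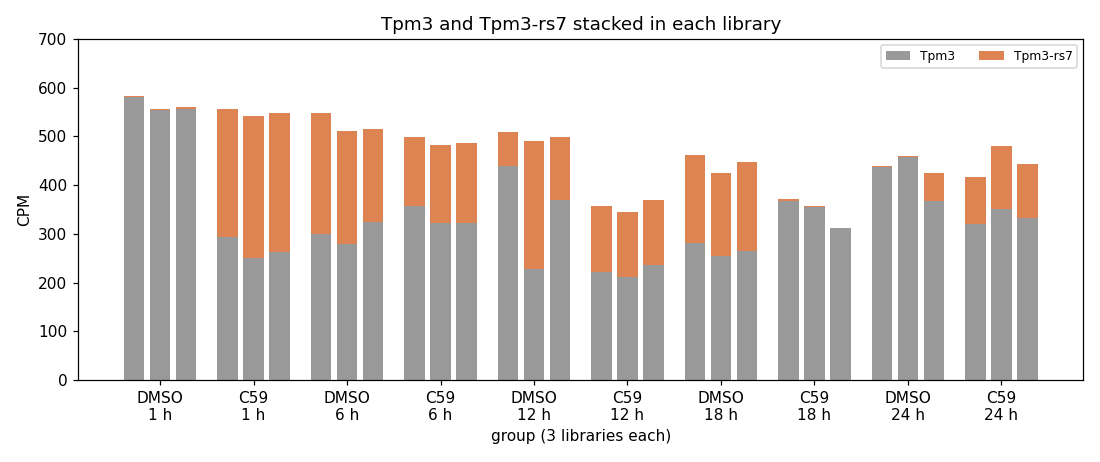
CPM of Tpm3 (gray) with Tpm3-rs7 (orange) stacked on it, 1 bar for each of the 30 libraries in order of time and treatment. The total height varies 1.87-fold, while the orange part almost vanishes in DMSO 1 h, C59 18 h and 2 of the DMSO 24 h libraries.

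The genes most like Tpm3-rs7 over the 30 libraries were the methyltransferase gene Carnmt1 (Pearson r = 0.72), the long noncoding RNA 5930430L01Rik (0.69) and Csnk2a3 (0.68), on 3 other chromosomes. None had a low state of the same depth. Carnmt1 was lowest in C59 18 h (24.1, 19.4 and 15.3 CPM) but was at 29.7 ± 4.02 CPM in DMSO 1 h, within the range of the groups with high Tpm3-rs7.

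Rp1l1 and Abhd12b were present in the same single group. Rp1l1, on chromosome 14 (63992506 to 64035025, plus strand, mm10), encodes a protein of the photoreceptor axoneme, and Abhd12b, on chromosome 12 (70154142 to 70183887, plus strand), a putative serine hydrolase. Rp1l1 was at 5.73, 7.92 and 11.2 CPM in DMSO 6 h (138 to 189 counts), with a total of 2 reads in the other 27 libraries. Abhd12b was at 2.45, 2.14 and 6.20 CPM in DMSO 6 h (41 to 105 counts), with at most 3 reads in any other library. Their levels followed each other over the 30 libraries with Pearson r = 0.98, a value set by those 3 libraries (Spearman rho = 0.54). Against the floor of 3 counts, C59 6 h was at least 181.2-fold lower for Rp1l1 and at least 78.8-fold lower for Abhd12b, and DMSO 12 h was at least 153.5-fold and 66.7-fold lower than DMSO 6 h.

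Other genes shared this pattern of presence in DMSO 6 h in the read counts. The pseudogene Gm8399, on chromosome 13, was at 90.9, 96.6 and 43.7 CPM there and between 1.37 and 2.95 CPM in the means of all other groups (r with Rp1l1 = 0.96). On log2(FPKM + 1) its r with Rp1l1 was only 0.23, so the deposited FPKM did not show this pattern for Gm8399. Tbx19, a T-box factor best known from the pituitary, was at 3.07, 2.24 and 0.649 CPM there, with group means of at most 0.0479 CPM elsewhere (r = 0.90, and 0.82 on log2(FPKM + 1)). The DMSO 6 h libraries held no Y-linked transcripts (summed Y-linked level of 0 FPKM in all 3), while those of C59 6 h held 20.3, 19.8 and 33.2 FPKM. The other libraries with Xist but without Ddx3y had summed Y-linked levels of at most 0.417 FPKM. They held at most 3 reads of Abhd12b and at most 1 read of Rp1l1 each. The part of sex in these genes' levels was not tested. Photoreceptor markers summed to 0.0980 to 0.136 FPKM in DMSO 6 h and 0.0233 to 0.355 FPKM over all libraries, with Crx, Rcvrn, Pde6b and Prph2 near 0 throughout. Of the doublecortin-domain and axoneme genes related to Rp1l1, 6 of 10 were tested, as were all 8 abhydrolase genes, and none was called at any time.

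Padi4 encodes a peptidylarginine deiminase, which turns arginine into citrulline in histones and other proteins and is known from granulocytes. It lies on chromosome 4 (140745865 to 140774236, minus strand, mm10). At 18 h it was at 9.92, 8.44 and 13.9 CPM in C59 and at 0.162, 0.0535 and 0.162 CPM in DMSO, an 85.4-fold difference in means. At 1 h the order was the opposite at a lower level, 0.0440, 0.103 and 0.158 CPM in C59 against 0.938, 1.27 and 1.67 CPM in DMSO. At 24 h it was again higher with C59 (8.08, 7.64 and 6.30 CPM) than with DMSO (1.08, 4.49 and 0.912 CPM), and at 6 h the groups overlapped, at 1.59 to 5.61 CPM in DMSO and 2.03 to 4.37 CPM in C59. At 12 h the DMSO libraries had 0 to 2 reads each, and the C59 group was split, with 48 reads in replicate 1 and 1 and 5 reads in the other replicates. Padi4 was thus nearly missing (under 10% of its highest group mean) from 4 groups, 2 of each treatment.

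Granulocyte markers summed to between 1.52 and 6.79 FPKM over all libraries, most of it from Mpo and Prtn3, while Elane, Ctsg, S100a8, S100a9 and Ltf were below 0.1 FPKM in 22 to 30 libraries. In some groups the library with the most Padi4 also had the highest sum. Among such libraries were C59 12 h replicate 1 (6.60 FPKM, against 5.10 and 4.02 in the others), C59 18 h replicate 3 (6.79, against 2.67 and 4.34) and DMSO 24 h replicate 2 (3.58, against 3.37 and 3.28). The same held in DMSO 1 h, and in C59 1 h on 1, 2 and 3 reads of Padi4. In DMSO 18 h replicates 1 and 3 had 3 reads each, with the highest (3.73 FPKM) and the lowest (1.52) sum of the group. In the remaining groups it did not hold. The library with the most Padi4 had the lowest sum in C59 6 h (3.58 FPKM), DMSO 12 h (2.68, on 0 to 2 reads) and C59 24 h (2.56). In DMSO 6 h its sum was 3.05 FPKM, against 2.79 and 3.53. Between treatments the sums overlapped at 1 h (2.51 to 3.31 FPKM in C59, 2.67 to 3.59 in DMSO), at 18 h (1.52 to 3.73 in DMSO) and at 24 h (2.56 to 3.38 in C59), the times at which Padi4 did not overlap. At 12 h, when both groups were nearly missing Padi4 apart from that one library, the C59 sums lay above those of DMSO (2.68 to 3.24 FPKM). The part of granulocytes in the levels of Padi4 was not tested. The most similar genes were Mcam, a cell adhesion molecule (Pearson r = 0.73, group means of 32.8 to 58.8 CPM), the pseudogene Gm6166 (0.72) and the focal adhesion gene Tns2 (0.71). Of the other peptidylarginine deiminases, 3 of 4 were tested and none was called. In such bulk samples fewer cells of a type and less RNA per cell cannot be told apart.

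Zfp985, Zfp979 and Zfp984 lie close together on chromosome 4, with Zfp534 between the latter pair, at 147553277 to 147585198 (plus strand), 147611937 to 147642513 (minus) and 147753974 to 147809788 (minus, mm10). They encode zinc finger proteins of the KRAB type, a class of transcriptional repressors that work with the cofactor Trim28. In 9 groups all were well above background, and in C59 24 h all were nearly missing. Zfp979 was at 0.0833, 0.116 and 0 CPM in C59 24 h and at 10.7, 10.9 and 8.72 CPM in DMSO 24 h, a 151.6-fold difference in means. Zfp984 was at 0.625, 0.272 and 0.581 CPM against 15.3, 17.2 and 17.2 CPM (33.7-fold), and Zfp985 at 0.0417, 0.310 and 0.0484 CPM against 4.17, 4.96 and 5.03 CPM (35.4-fold). The lowest of the other 9 group means was 5.55 CPM for Zfp979, 8.91 CPM for Zfp984 and 2.18 CPM for Zfp985, all in C59 groups. Without C59 24 h replicate 3, which carried hepatocyte markers, both remaining libraries had at most 8 reads of Zfp979 or Zfp985 and 7 and 15 reads of Zfp984.

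Smaller differences between libraries were also shared by the 3 genes. In C59 6 h replicate 3 they were at 2.79, 4.87 and 1.85 CPM for Zfp979, Zfp984 and Zfp985, below both other replicates (7.65 to 7.99, 10.53 to 11.3 and 2.76 to 2.94 CPM). In DMSO 12 h replicate 2 was the lowest and replicate 3 the highest for each of them. Over the 30 libraries the 3 genes had pairwise Pearson r of 0.95 to 0.98, and the long noncoding RNA Gm20707, which overlaps Zfp984 on the same strand, had r of 0.95 to 0.97 with them. Gm20707 was at 0.0417, 0.349 and 0.0484 CPM in C59 24 h and 5.81 ± 1.24 CPM in DMSO 24 h. Reads that lie where Gm20707 and Zfp984 overlap cannot be assigned to either without ambiguity.

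The promoters of the 3 genes, taken from RefSeq (GRCm38.p6) as the 250 bases before the annotated start, are alike, and they are printed because these genes moved together and because a run of bases that they share also stands in promoters of relatives that did not move with them. Capitals mark the 155 bases that are identical in all 3 after alignment. The positions are chr4:147553027-147553276 (plus strand) for Zfp985, chr4:147642509-147642758 (minus) for Zfp979 and chr4:147809789-147810038 (minus) for Zfp984.
Zfp985: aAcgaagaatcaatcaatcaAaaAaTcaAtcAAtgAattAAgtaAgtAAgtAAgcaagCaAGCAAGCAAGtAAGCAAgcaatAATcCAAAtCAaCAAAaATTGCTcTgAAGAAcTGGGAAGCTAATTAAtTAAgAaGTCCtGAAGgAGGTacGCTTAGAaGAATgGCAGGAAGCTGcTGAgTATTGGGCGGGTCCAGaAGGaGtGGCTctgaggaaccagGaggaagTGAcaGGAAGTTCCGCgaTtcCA
Zfp979: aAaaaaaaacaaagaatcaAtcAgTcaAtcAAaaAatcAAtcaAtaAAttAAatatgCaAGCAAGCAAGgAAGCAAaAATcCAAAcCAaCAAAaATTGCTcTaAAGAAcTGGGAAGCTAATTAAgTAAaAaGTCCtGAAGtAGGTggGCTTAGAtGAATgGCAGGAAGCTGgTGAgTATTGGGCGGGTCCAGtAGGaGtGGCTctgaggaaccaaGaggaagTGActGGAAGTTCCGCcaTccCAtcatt
Zfp984: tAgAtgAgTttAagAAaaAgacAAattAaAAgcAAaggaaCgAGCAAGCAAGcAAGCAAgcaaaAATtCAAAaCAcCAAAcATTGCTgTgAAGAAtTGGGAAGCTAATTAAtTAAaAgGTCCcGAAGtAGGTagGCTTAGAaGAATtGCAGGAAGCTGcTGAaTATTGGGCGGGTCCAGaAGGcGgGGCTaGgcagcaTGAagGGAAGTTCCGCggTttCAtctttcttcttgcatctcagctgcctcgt

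Zfp985 and Zfp979 are identical at 82.4% of aligned positions, and Zfp984 at 60.9% and 60.8% with these. The longest run common to all 3 is TATTGGGCGGGTCCAG, 16 bases that include the GC box core GGGCGG. On either strand, this run occurs in 9 of 32851 mouse promoters of the same length (0.0274%), against 32.7% for GGGCGG alone. All 9 belong to genes on chromosome 4, the others being Gm13212, Rex2, Zfp600, Zfp980, Zfp982 and Zfp988. Gm13212 was at 9.02 ± 0.489 CPM in C59 24 h and 7.74 ± 1.36 CPM in DMSO 24 h (SD, n = 3; log2 fold change 0.23 ± 0.14 (SE), adjusted p = 0.378, edgeR's quasi-likelihood test with Benjamini-Hochberg adjustment). Zfp982 was at 3.33 ± 0.446 against 1.95 ± 0.147 CPM (log2 fold change 0.78 ± 0.20), below the threshold of 1. Rex2, Zfp600, Zfp980 and Zfp988 had group means of at most 0.208 CPM everywhere and were not tested. Thus the 16 bases were found in genes with and without the loss of reads in C59 24 h.

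Part of the transcript sequence of these genes is shared with relatives. Of the stretches of 100 bases in their annotated transcripts, 21.5% of Zfp979, 30.9% of Zfp984 and 1.73% of Zfp985 occur in other genes, mostly in Zfp600 and Zfp978 for Zfp979 (10.8% and 9.65%) and in Gm13212 for Zfp984 (26.7%). Reads from such stretches cannot be assigned with certainty. How they were counted is not given in the sources used here, so the effect on the counts of Zfp979 and Zfp984 is not known. Of the 19 genes in the list of related zinc finger genes and KRAB cofactors, 9 were tested at some time and none was called at any. These were 6 zinc finger genes of chromosome 4, Zfp983 of chromosome 17, and the cofactor genes Trim28 and Setdb1. Zfp982, 124 kb from Zfp979, and Zfp990 passed an adjusted p of 0.05 at 24 h with changes of 0.78 ± 0.20 and -0.61 ± 0.16 on the log2 scale (adjusted p = 0.0399 and 0.041, edgeR's quasi-likelihood test with Benjamini-Hochberg adjustment).

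**Figure D3:**
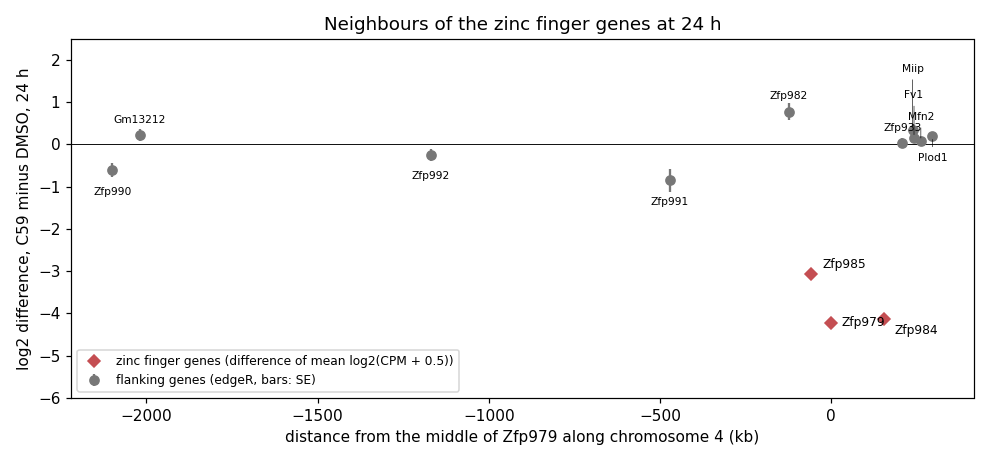
Log2 difference between C59 and DMSO at 24 h against distance from the middle of Zfp979 in kb; gray points are the 10 nearest tested protein-coding genes (5 to each side) with SE bars, red diamonds the 3 zinc finger genes. All gray points lie between -1 and 1, and the diamonds between -4.22 and -3.07.

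Akr1e1, an aldo-keto reductase that reduces a sugar derivative of glycogen breakdown, lies on chromosome 13 (4590750 to 4609174, minus strand, mm10). It was never nearly missing: its lowest group mean was 18.7% of its highest. The widest contrast was at 24 h, with 21.9, 22.4 and 26.5 CPM in C59 and 5.10, 3.91 and 4.24 CPM in DMSO (5.34-fold). At 6 h the groups were at 10.3, 11.3 and 18.5 CPM in C59 and 4.69, 7.71 and 7.32 CPM in DMSO, and at 1, 12 and 18 h they overlapped. Its level ran against that of the zinc finger genes over the 30 libraries, with Pearson r of -0.73 to -0.76. Akr1e1 and the zinc finger genes are on different chromosomes and share no stretch of 100 bases. The most similar genes were 3 processed pseudogenes, Gm3226, Gm3756 and Gm14150 (r = 0.70, 0.66 and 0.66). Gm3226 was at 14.7, 17.0 and 13.0 CPM in C59 24 h and at 1.39, 1.29 and 1.90 CPM in DMSO 24 h, and in DMSO 18 h it was at 10.9 CPM in replicate 2 and at 1.03 and 1.57 CPM in the others.

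Of 13 other aldo-keto reductases, 7 were tested. Akr1c14, which acts on steroids and lies 530 kb from Akr1e1, was called at 12 h (1.27 ± 0.0327 against 0.572 ± 0.0741 CPM, SD, n = 3; log2 fold change 1.13 ± 0.31 (SE), adjusted p = 0.0113, edgeR's quasi-likelihood test with Benjamini-Hochberg adjustment). Akr1e1 itself overlapped between the treatments at that time. Over all lists of related genes, 3 of 51 genes were called at 12 h (5.88%), against 4.95% of all tested genes. Over the 5 times it was 4 of 251 tests (1.59%), against 1.70% of all tests, so related genes were called about as often as others.

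Trim5 belongs to the TRIM genes of chromosome 7 (104263386 to 104288094, minus strand, mm10), whose primate relative restricts retroviruses. It had a count of 0 in every C59 24 h library, against 26, 4 and 50 reads (1.34, 0.156 and 1.98 CPM) in DMSO 24 h, which is at least 27.2-fold lower in the mean. The switch rests on 4 reads in DMSO 24 h replicate 2. It was also seen in the counts only. In the deposited FPKM, C59 24 h was at 0.04013, 0 and 0.02126 and DMSO 24 h at 0.3748, 0.07125 and 0.5159, without a 10-fold gap. C59 18 h was also uneven, with 1, 22 and 11 reads (0.0468, 1.10 and 0.527 CPM), and DMSO 18 h was not (2.16, 1.85 and 1.89 CPM). Its highest group mean was in C59 12 h, at 1.53, 3.11 and 2.90 CPM, against 1.70, 1.34 and 1.24 CPM in DMSO 12 h. At 6 h the order was the same (3.15, 2.06 and 2.03 CPM in C59, 1.20, 1.09 and 1.06 CPM in DMSO), so that every C59 library was above every DMSO library at 6 h and below every one at 1, 18 and 24 h. Of its stretches of 100 bases 11.7% occur in other genes, 6.64% in Trim12c, and the effect of this on its counts is not known. The most similar genes, B230354K17Rik, Arhgef2 and Jakmip2 (r = 0.80, 0.80 and 0.79), varied far less, with Arhgef2 between 139 and 182 CPM in group means. Of 10 related TRIM genes, 6 were tested, and Trim34b, 57.5 kb away, was called at 12 h (1.159 ± 0.0755 against 0.551 ± 0.155 CPM, SD, n = 3; log2 fold change 1.05 ± 0.34 (SE), adjusted p = 0.0246, edgeR's quasi-likelihood test with Benjamini-Hochberg adjustment).

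The variation of each gene over the 30 libraries was divided into parts for treatment, time, their combination (treatment by time) and the spread within groups, as percent of the sum of squares of log2(CPM + 0.5). For Nr1h5 treatment took 2.05%, time 32.7%, treatment by time 57.0% and the spread within groups 8.27%. For Tpm3-rs7 the shares were 1.80%, 23.8%, 67.3% and 7.07%. Treatment took 11.05% to 11.9% for Rp1l1, Abhd12b and Padi4, 21.5% to 25.5% for the zinc finger genes, 36.1% for Akr1e1 and 4.81% for Trim5. In all 10 genes treatment by time exceeded treatment, and it was at least 32.3%, against a median of 15.03% among 14039 genes. These shares use the values for which the genes were chosen and are given as a description. For Axin2 treatment took 31.2%, time 36.8%, treatment by time 31.3% and the spread within groups 0.775%. A treatment by time share is the part of the variation between groups that neither a constant difference between C59 and DMSO nor a course of time common to both accounts for.

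**Figure D4:**
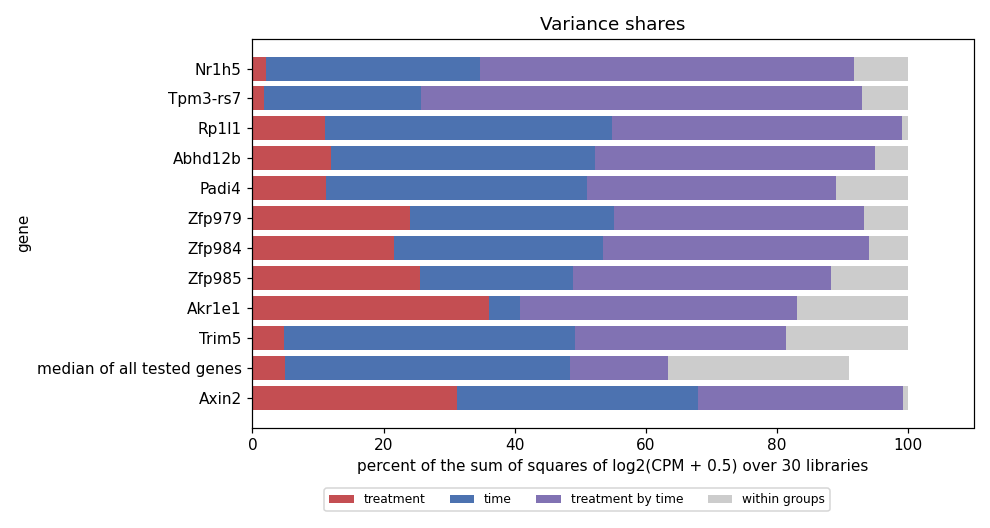
Percent of the sum of squares of log2(CPM + 0.5) over 30 libraries that falls to treatment (red), time (blue), treatment by time (purple) and the spread within groups (gray), for the 10 genes, for the median of 14039 genes (medians of the 4 parts, which need not add up to 100) and for Axin2. The purple part is 57.0% for Nr1h5 and 67.3% for Tpm3-rs7, and 15.03% for the median gene.

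Within single groups gaps above 10-fold were also seen between replicates, by a looser rule than that for switches. Only the highest and lowest library of a group had to be that far apart. Shares of genes under this rule are therefore not comparable with those of switches. Nr1h5 in DMSO 18 h (0, 10.2 and 0 CPM), Padi4 in C59 12 h (2.62, 0.0420 and 0.230 CPM) and Tpm3-rs7 in DMSO 24 h (3.14, 2.93 and 57.5 CPM) each had 1 library apart from the others by a factor above 10, and in Trim5 the highest and lowest libraries of C59 18 h and of DMSO 24 h were that far apart. Such a gap within a group, with 1 CPM or more in the highest library, was found for 0.0170% to 0.153% of the 17650 genes, depending on the group. These libraries differ in neither treatment nor time from the other libraries of their group. The summed Y-linked level in DMSO 18 h was 0.0940, 21.02 and 0.0195 FPKM, the higher value being that of the library with Nr1h5, and in DMSO 24 h it was 20.1, 0.0147 and 19.6 FPKM, which did not follow Tpm3-rs7.

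The genes around each of the 10 were not used to choose them and were tested. The 5 nearest tested protein-coding genes on each side gave 401 tests over the 5 time points, of which 13 (3.24%) were called, against 1135 of 66588 tests (1.70%) of all genes. After 1 h none of 81 flanking genes was called, beside 0.283% of all genes. The count was 2 of 80 after 6 h (1.17% of all genes), 5 of 80 after 12 h (4.95%), 2 of 80 after 18 h (1.29%) and 4 of 80 after 24 h (0.819%). At 1 h, when Nr1h5 and Tpm3-rs7 were switched, no flanking gene passed. None of the flanking genes of Rp1l1 or Padi4 was called at any time.

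Some of the called neighbors lay close to a described gene. Sycp1, which encodes a protein of the meiotic synaptonemal complex, lies 74.6 kb from Nr1h5 and was at 0 CPM in C59 24 h and 0.947 ± 0.569 CPM in DMSO 24 h (SD, n = 3; adjusted p = 0.00431, edgeR's quasi-likelihood test with Benjamini-Hochberg adjustment), while at 6 h it was higher with C59 (1.15 ± 0.147 against 0.563 ± 0.127 CPM, adjusted p = 0.0469). Nr1h5 itself was at 0 in every 24 h library. Trim9, a ubiquitin ligase of neurons 127 kb from Abhd12b, was at 1.22 ± 0.212 CPM in C59 24 h and 5.65 ± 1.37 CPM in DMSO 24 h (log2 fold change -2.20 ± 0.24 (SE), adjusted p = 0.000285, edgeR's quasi-likelihood test with Benjamini-Hochberg adjustment). Miip, 82.9 kb from Zfp984, was lower with C59 at 18 h (9.98 ± 1.68 against 21.8 ± 5.19 CPM, adjusted p = 0.0121), a time at which the zinc finger genes overlapped between treatments. Among the other calls were Slitrk1 (2.53), Dct (1.15), Akr1c14 (1.13), Adarb2 (2.52) and Trim34b (1.05) at 12 h, Idi1 at 18 h (-1.10), and Casq2 (1.23) and Dct (-1.36) at 24 h, as log2 fold changes of C59 over DMSO. Of the calls named here, that of Sycp1 at 6 h fell in a comparison in which the gene it flanks, Nr1h5, was switched. The flanking genes of Nr1h5 had 4 calls in all. The other flanking call at 6 h, lower with C59, is not reported here.

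**Figure D5:**
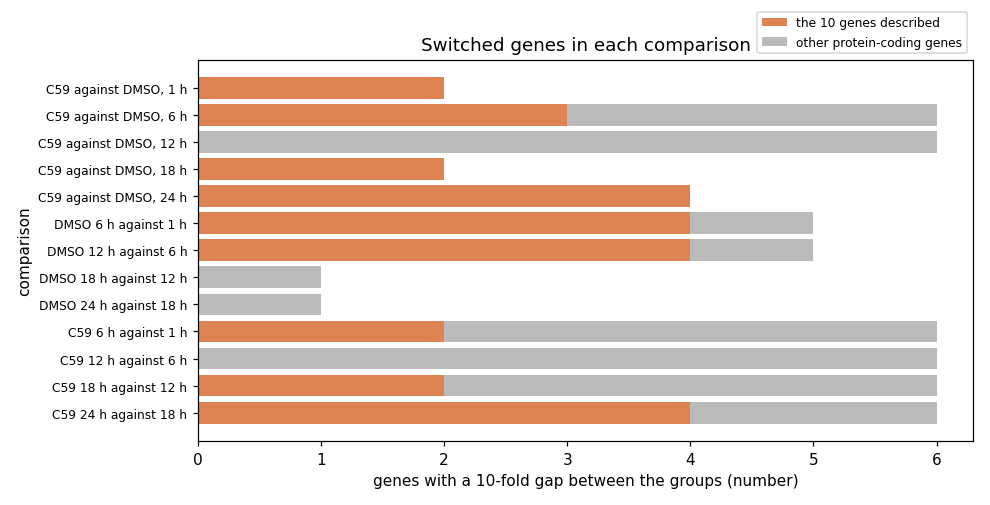
Number of protein-coding genes with a gap above 10-fold between the libraries of 2 groups, for 5 comparisons of C59 with DMSO and 8 of neighboring times within a treatment; orange marks the 10 genes described here and gray all others. At 1, 18 and 24 h every switched gene between treatments was one of the 10, and at 12 h none was.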

How the data were processed

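PolyA RNA of 30 forelimb bud libraries was sequenced in 150-base pairs. The authors trimmed reads with Cutadapt 1.16 and aligned them to mm10 with STAR 2.7.0e, which also wrote the deposited counts of reads per gene; the deposited FPKM values were computed by the authors with Cufflinks 2.2.1. Strand and multiple hits in the counting are not given in the sources used here. The count table holds 50833 autosomal genes.

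Counts were scaled by TMM (edgeR 4.0.16, R 4.3.3) over all 30 libraries to give CPM, and log2 differences used log2(CPM + 0.5). C59 and DMSO were compared within each time point (3 against 3 libraries) by edgeR's quasi-likelihood F test, two-sided, on protein-coding genes that passed filterByExpr. A call required an adjusted p (Benjamini-Hochberg) under 0.05 together with a log2 fold change beyond 1. The procedure was tested on simulated data. Of the 10 genes described, 8, 10, 6, 8 and 6 passed the low-count filter from 1 to 24 h. These genes and the lists of related genes and markers were chosen with earlier results of these data known, so their own differences carry no p-value. Also named are the 3 genes most correlated with each, and the flanking and related genes called at any time, apart from an item that is not reported here. A group was nearly missing a gene when its mean was under 10% of the highest group mean. Fold bounds set an empty group to 3 counts over its libraries and cover counting error only. Stretches of 100 bases were compared, on both strands, over all GENCODE M21 transcripts; 8 of the 10 genes had a RefSeq promoter. Promoters were aligned with mafft 7.526. Figures were drawn with matplotlib 3.10.9.

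Replicate pairs differed by more than sampling noise (chi-square per degree of freedom of 3.31 to 42.2). The alternatives tried were DESeq2 1.42.0, its size factors, other filters, FPKM with limma 3.58.1, the replicate number as a block, leaving out libraries, and other gap and neighborhood sizes. P-values measure the spread between these libraries only.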

Additional observations from a re-analysis of the deposited data

Results flagged for a closer look

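Nr1h5, Tpm3-rs7, Padi4 and Trim5 each moved in opposite directions with C59 at different times, with every C59 library on one side of every DMSO library at those times. How many of all genes do so was not counted. Some of these separations were small, at 1.44-fold for Tpm3-rs7 at 6 h and 1.72-fold for Trim5 at 1 h. The differences between these effects were not tested, since the genes were chosen on the same values. For Nr1h5 the log2 difference between C59 and DMSO was 10.9 higher at 1 h than at 6 h. For Tpm3-rs7 it was 12.24 higher at 1 h than at 18 h and 9.64 higher at 24 h than at 18 h. Against 6 h, when every C59 library of Tpm3-rs7 was below every DMSO library, it was 6.77 higher at 1 h and 4.17 higher at 24 h. For Padi4 it was 5.71 higher at 18 h than at 1 h and 3.37 higher at 24 h than at 1 h. For Trim5 it was 1.25 higher at 6 h than at 1 h, 2.18 higher at 6 h than at 18 h and 2.35 higher at 6 h than at 24 h.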

How the results depend on the processing

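No difference between C59 and DMSO in the 10 genes beyond 1 on the log2 scale changed sign under any alternative run; 412 of 450 values stayed within the spread between replicates and 38 did not, those on log2(FPKM + 1) or with a prior of 0.1 CPM. With all 30 libraries in 1 fit, the genes called numbered 24 at 1 h and 268 at 18 h, against 37 and 173; with all genes of the table, 76 at 1 h. By limma on log2(FPKM + 1) they numbered 5, 27, 158, 31 and 24 from 1 to 24 h, and on log2(FPKM + 0.1) 21 at 1 h, 99 at 6 h and 70 at 24 h. Leaving out a library gave 20 to 47 at 1 h (lowest without DMSO replicate 2, and 22 without C59 replicate 2) and 77 to 194 at 18 h (lowest without DMSO replicate 3, and 92 without DMSO replicate 1). Of the 13 calls among flanking genes, 8 were made by DESeq2, 7 with a mean of at least 1 CPM, and 1 and 5 by limma with the 2 pseudocounts. Calls among related genes, 4 in the main fit, numbered 2, 2, 1 and 2 under the same settings and 7 with all 30 libraries. Genes switched between treatments, 20 summed over the times, numbered 45 at a 5-fold gap, 12 with at least 5 CPM, 13 in FPKM and 59 over all genes of the table. Leaving out a replicate gave 27 to 34 (32 without replicate 1, 34 without replicate 2). Genes switched in time, 36 in all, numbered 75 at a 5-fold and 21 at a 20-fold gap, 19 with at least 5 CPM, 21 in FPKM, 80 over all genes, and 42 to 56 without a replicate (56 without replicate 2). Without the 2 libraries with hepatocyte markers, an alternative chosen after seeing the data, they numbered 22 and 43. Leaving out libraries can never narrow a gap, so under the rule used the counts of switched genes tend to rise in such runs. The cause of the other shifts was not tested. With the replicate block, 36, 141, 672, 152 and 103 genes were called from 1 to 24 h, and 11 flanking and 4 related genes; same-numbered libraries correlated above 0.1 in 1 of 15 pairs (-0.21 to 0.14), so they share only a number. Levels under a few reads per group are not resolved at this depth.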
